A study of Mus musculus with 6 samples.

Results

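The replication-dependent histone genes encode the bulk histones that package new DNA during S phase, and they lie together in clusters. They were taken as the protein-coding genes of an mm9 annotation whose symbol starts with Hist1h, Hist2h, Hist3h or Hist4h, which gave 67 of 22350 protein-coding genes. Hist1 on chromosome 13 held 55 of them, Hist2 on chromosome 3 held 9, Hist3 on chromosome 11 held 2 and Hist4 on chromosome 6 held 1. By histone type there were 6 H1, 19 H2A, 18 H2B, 11 H3 and 13 H4 genes. A further 3 genes with such a symbol were annotated as pseudogenes and left out. At these genes the pSmad2 ChIP libraries held 4.59 to 5.79 times the tags of input in all 3 treatments, for the most part past the start of the gene. By library totals, the level pooled over all 67 genes was lowest after Activin and highest after SB. The H3 and H4 genes, pooled by type, were not lowest after Activin when set against input.

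The libraries came from E14 TG2A, an established line of mouse embryonic stem (ES) cells, grown in medium with knockout serum replacement. All cultures were first held for 6 h in 10 uM SB (SB-431542), an inhibitor of the kinases of the Nodal and Activin receptors. They were then kept for 18 h in Activin at 25 ng/ml, in the solvent DMSO at a dilution of 1 in 5000, or in SB at 10 uM. Each treatment had 1 ChIP library, made with an antibody to Smad2 phosphorylated by these receptors (pSmad2), and 1 library of input DNA that had not passed the antibody. There was thus no replicate check, and the tests compare libraries, not cultures of a treatment.

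Core histones H2A, H2B, H3 and H4 form the octamer around which DNA is wound, and linker histone H1 binds where the DNA enters and leaves it. Unlike most messages, those of replication-dependent histone genes are not polyadenylated but end in a conserved stem-loop, and the genes are strongly transcribed in dividing cells, ES cells among them. Smad2 is the transcription factor that carries the signal of Activin and Nodal receptors into the nucleus, where it acts with Smad4 at binding sites in DNA.

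The stem-loop was used to check the label of the genes, since it is the feature that sets them apart from other histone genes. It was searched as GGNNNTTTTNANNNCC with the inner letters of both arms able to pair, on the strand of the gene. From the start of the gene to 100 bases past its annotated end it was found in 62 of 67 histone genes (92.5%), and in 159 of all 22350 genes (0.711%). Within 100 bases of the annotated end it was found in 41 histone genes (61.2%), and these 41 were all of the protein-coding genes that had it there (0.183%). Hist1h2an, Hist1h3g, Hist1h4a, Hist1h2al and Hist2h2be had no match. A match of letters is a description and not proof that the RNA is processed there. A representative of H1, H4, H2A and the lone Hist4 gene is shown in mm9 sequence on the strand of the gene, with the stem-loop in capitals, to show how alike the genes are in this element. The stretches lie at chr13:21871701-21871726 (minus strand), chr13:23673814-23673839 (plus), chr3:96024336-96024361 (minus) and chr6:136752514-136752539 (minus).
Hist1h1b: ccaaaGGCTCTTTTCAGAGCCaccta
Hist1h4d: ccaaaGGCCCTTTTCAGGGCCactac
Hist2h2ac: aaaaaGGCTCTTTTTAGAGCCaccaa
Hist4h4: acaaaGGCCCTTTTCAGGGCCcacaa

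The place of the ChIP tags is shown by the coding sequence in which the listed Activin position of 2 genes lay, an H1 gene of the large Hist1 cluster and the only Hist4 gene. The peak lists of the authors give a position and a tag number for each peak. Hist1h1d (ENSMUSG00000052565, chr13:23646901-23650721, plus strand) had a listed Activin position at 23647563, and Hist4h4 (ENSMUSG00000068851, chr6:136752589-136752900, minus strand) at 136752734. Both positions fell inside the stretch printed, chr13:23647413-23647624 for Hist1h1d and chr6:136752589-136752883 for Hist4h4, with the stop codon in capitals.
Hist1h1d: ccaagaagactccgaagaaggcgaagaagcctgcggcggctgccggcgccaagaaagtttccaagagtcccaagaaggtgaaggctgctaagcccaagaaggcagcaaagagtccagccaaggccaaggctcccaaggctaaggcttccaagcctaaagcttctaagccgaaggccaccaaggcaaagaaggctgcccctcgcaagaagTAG
Hist4h4: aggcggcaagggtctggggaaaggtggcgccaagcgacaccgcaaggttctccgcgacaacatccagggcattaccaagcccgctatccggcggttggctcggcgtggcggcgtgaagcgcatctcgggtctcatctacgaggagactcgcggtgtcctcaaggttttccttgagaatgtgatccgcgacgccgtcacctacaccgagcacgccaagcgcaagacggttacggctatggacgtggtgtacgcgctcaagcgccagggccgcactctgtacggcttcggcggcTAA

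The 250 bases before the start are shown for an H1 gene with ChIP signal (Hist1h1d, chr13:23646651-23646900, plus strand) and for the testis-type H1 gene without a call (Hist1h1t, chr13:23787430-23787679, plus strand). The CCAAT box, the TATA box as TATAAA and the palindrome GTCTAGAC are in capitals on either strand. In addition, the bases between the starts of a divergent pair, Hist1h2an and Hist1h2bp (chr13:21879087-21879330, minus strand), are shown, since this pair held the only match to the Smad palindrome GTCTAGAC among the promoters of the 67 genes.
Hist1h1d: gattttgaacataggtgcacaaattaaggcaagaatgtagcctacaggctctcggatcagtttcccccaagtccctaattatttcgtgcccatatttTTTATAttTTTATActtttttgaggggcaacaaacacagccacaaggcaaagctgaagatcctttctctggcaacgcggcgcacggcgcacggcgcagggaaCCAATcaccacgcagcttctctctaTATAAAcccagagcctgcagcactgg
Hist1h1t: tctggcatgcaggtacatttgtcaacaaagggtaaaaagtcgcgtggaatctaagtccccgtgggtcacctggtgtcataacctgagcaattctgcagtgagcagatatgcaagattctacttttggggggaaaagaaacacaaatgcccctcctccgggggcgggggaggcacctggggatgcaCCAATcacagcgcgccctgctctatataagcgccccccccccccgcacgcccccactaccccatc
Hist1h2an to Hist1h2bp: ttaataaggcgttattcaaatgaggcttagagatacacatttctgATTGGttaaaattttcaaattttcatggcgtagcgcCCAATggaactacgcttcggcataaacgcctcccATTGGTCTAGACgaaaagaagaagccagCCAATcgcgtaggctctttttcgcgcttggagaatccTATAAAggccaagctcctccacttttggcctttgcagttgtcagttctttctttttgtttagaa

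Promoters were taken from 250 bases before to 50 bases after the start, and motifs were counted on both strands with overlaps allowed. The core Smad element CAGAC was found in 44 of 67 promoters (65.7%), against 48.5% of all promoters. By type it was found in 2 of 6 H1, 12 of 19 H2A, 9 of 18 H2B, 9 of 11 H3 and 12 of 13 H4 promoters, so that H3 and H4 had the highest shares and H1 was below all promoters. The palindrome GTCTAGAC, which joins the core AGAC to its reverse complement and holds no CAGAC, was found in 2 (2.99%), the pair shown, against 39 of all genes (0.174%). The general promoter boxes were frequent, with CCAAT in 57 (85.1%, against 37.9%) and TATAAA in 38 (56.7%, against 13.4%). CCAAT was found in all 19 H2A, all 18 H2B and all 6 H1 promoters but in 4 of 13 H4 promoters. The octamer ATTTGCAT was found in 15 promoters (22.4%, against 1.73%), which were 7 H2A and 8 H2B promoters. Promoters of a close divergent pair overlap, so that 1 site of any of these motifs can count for both genes. The octamer was found in 10 of 26 promoters with a divergent partner and in 5 of the 41 others (12.2%). Within 150 bases of the 58 listed Activin positions in the histone gene windows, CAGAC was found at 29 and GTCTAGAC at 0, whereas around all 5094 listed Activin positions the shares were 59.9% and 0.844%. The difference in CAGAC was not tested, and 58 positions are too few to read anything from 0 matches of the palindrome.

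The genes were short and closely packed. The median annotated length was 530 bp, 16 genes were over 1 kb, and the longest, Hist1h2be, was annotated over 37383 bp. In 13 divergent pairs, 26 genes started 168 to 693 bp from a partner on the other strand. Tags were counted from 1 kb before the start to 1 kb past the end, and 50 of these windows overlapped another one, so that neighbouring genes shared tags and are not separate measurements. Pooled values therefore use the 37 merged windows, 202164 bp in all. In addition, near-identical copies limit what short tags can be placed. A median of 81.6% of the 35-base stretches in a window occurred once in the genome, and in 8 genes fewer than 50% did. Hist1h2bq and Hist1h2br had none, and Hist1h2ao, Hist1h2ap, Hist1h4m and Hist1h4n had 1.39%, 1.03%, 3.83% and 7.53%. The windows of Hist1h2bq, Hist1h2br and Hist1h2ao held 0 tags in all 6 libraries, so nothing can be said of these genes.

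The ChIP libraries held 13148559 (Activin), 12879960 (DMSO) and 9757735 tags (SB), and the input libraries 10516699 to 12708225. Tags that repeated the position and strand of another made up 19.6 to 24.2% of ChIP tags and 2.71 to 4.35% of input tags in the histone windows. Such repeats may be copies of 1 molecule, and the intervals given, 95% Clopper-Pearson intervals of the ratio, cover counting error only.

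The first comparison asked how much pSmad2 ChIP signal the histone clusters held over input. After Activin, 6954 ChIP tags and 1330 input tags lay in the merged windows. After DMSO there were 8180 and 1584, and after SB 7037 and 1311. Scaled to the library totals, ChIP was 4.59 (4.33 to 4.87), 5.10 (4.83 to 5.38) and 5.79 (5.45 to 6.14) times input after Activin, DMSO and SB. With 1 tag kept per position and strand the ratios were 4.31, 5.01 and 5.66. The signal was thus present in all 3 treatments, SB included, in which the receptor kinases were inhibited. By western blot the paper reports a rise of pSmad2 after Activin, and in SB a partial fall and not its loss. The pooled ratios here had the other order, lowest after Activin and highest after SB. The blot measured protein of whole cells and the ratios DNA at these genes, so they are unlike measures.

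Gene by gene, a gene was called above input where the one-sided exact binomial test gave a Benjamini-Hochberg adjusted p under 0.05 over all genes with at least 10 tags in both libraries together, and the ratio was at least 1.5. Of the 67 genes, 63, 62 and 62 had enough tags after Activin, DMSO and SB. Called were 57, 58 and 59 of them, where 7.0%, 10.2% and 10.2% of all tested genes were called. The genes without enough tags were Hist1h2bq, Hist1h2br, Hist1h2ao and Hist1h4m, and after DMSO and SB also Hist1h2ap. The median ratio of the tested histone genes was 6.41, 6.66 and 6.55 (6.47 with Hist1h4n, which had 0 input tags after SB, set to its limit), and that of all tested genes was 1.02, 1.01 and 1.01. A ratio above 5 was found at 41, 41 and 43 histone genes. In all 3 treatments 56 genes were called, in 2 treatments Hist3h2ba and Hist1h2bm, in 1 treatment Hist1h2al and Hist1h2ap, and in none the 4 genes without enough tags in any treatment and the testis-type genes Hist1h1t, Hist1h2aa and Hist1h2ba.

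**Figure D1:**
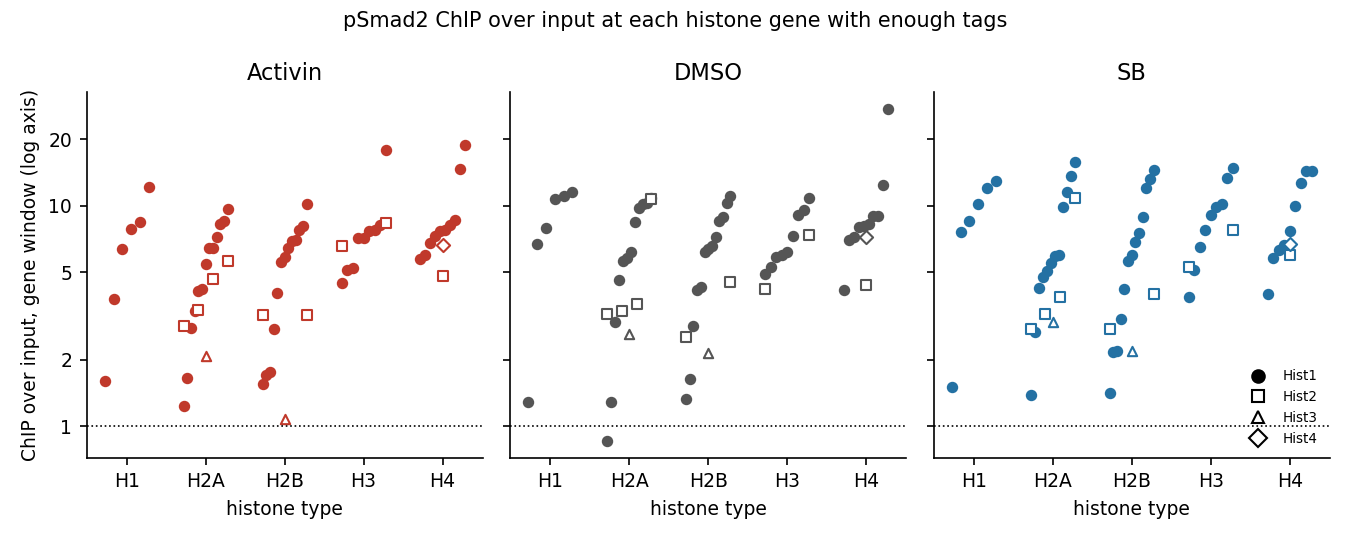
ChIP over input on a log axis for each histone gene with enough tags and a measured input, by histone type, in a panel per treatment; each point is 1 gene, its shape gives the cluster, and the dotted line marks a ratio of 1. The H3 and H4 genes all lie at 3.86 or above and the 3 testis-type genes lie near the line in each panel.

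The somatic linker histone genes ranged from 3.79 to 12.9 times input over the treatments. Hist1h1b (ENSMUSG00000058773, chr13:21871752-21872494, minus strand), a somatic H1 gene, held 362, 354 and 396 ChIP tags after Activin, DMSO and SB against 26, 44 and 42 input tags. Its ratio was 12.2 (8.21 to 19.0), 7.94 (5.79 to 11.1) and 10.2 (7.38 to 14.3). Hist1h1d held 365, 461 and 443 ChIP tags against 38, 41 and 56 input tags, with ratios of 8.43 (6.03 to 12.1), 11.1 (8.05 to 15.7) and 8.53 (6.45 to 11.5). These 2 genes overlapped in their intervals in each treatment. Hist1h1a was at 6.34, 11.6 and 12.9, Hist1h1c at 7.83, 10.7 and 12.1, and Hist1h1e at 3.79, 6.72 and 7.61. Thus the 5 somatic H1 genes of the cluster were all called in each treatment.

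The sixth H1 gene, Hist1h1t, encodes the linker histone of spermatocytes, and it lies among the others in the same block of Hist1 (chr13:23787680-23788588, plus strand). It held 44, 30 and 28 ChIP tags against 24, 23 and 20 input tags after Activin, DMSO and SB. The ratio was 1.61 (0.958 to 2.77), 1.29 (0.723 to 2.32) and 1.51 (0.820 to 2.83), with adjusted p of 0.172, 0.573 and 0.342 by the exact binomial test. Its interval lay below those of Hist1h1a, Hist1h1b, Hist1h1c and Hist1h1d in all 3 treatments, and overlapped that of Hist1h1e after Activin, 2.56 to 5.75. Its highest pileup, 22, 20 and 13 fragments, lay 1865 to 1886 bp past its start, beyond its end. Hist1h1t did hold a stem-loop match and CCAAT, as the somatic H1 genes did. Its promoter held no exact TATAAA, nor did that of Hist1h1c. The stretch printed for Hist1h1t does hold the near match tatataag shortly before the start, so a TATA box is not shown to be missing.

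Hist1h2aa and Hist1h2ba, an H2A and H2B gene pair named for the testis, stood on their own at chr13:24025637-24026720 and shared most of their window. Hist1h2aa held 31, 30 and 22 ChIP tags against 22, 23 and 17 input tags, with ratios of 1.24, 1.29 and 1.39. Hist1h2ba was at 1.56, 1.33 and 1.41. The merged window of the pair was at 1.57 (0.918 to 2.73) after Activin. Neither gene was called or had a listed position in any treatment.

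H2A and H2B genes ranged from input level to high signal. After Activin 16 of 18 tested H2A genes and 13 of 16 tested H2B genes were called, with medians of 4.42 and 4.78. Their ratios ran from 1.24 to 9.66 and from 1.08 to 10.2. The H2A value of 9.66 was that of Hist1h2ap and rests on 11 ChIP tags and 1 input tag (1.40 to 416). Its highest pileup lay 1409 bp past its start, so that this value says little of the gene itself. After DMSO 15 of 17 and 15 of 16 were called, and after SB 16 of 17 and 15 of 16. Among the lowest with at least 20 input tags were Hist1h2bm, at 1.76 after Activin and not called, and Hist1h2bh, at 2.20 after SB. Hist1h2ai, with 226 Activin ChIP tags and 24 input tags, was at 8.27, while Hist1h2be was at 1.70, 1.63 and 2.16 over its long annotation. Hist1h2al, alone at chr13:51298057-51298434, far from the rest of Hist1, held 32, 26 and 52 ChIP tags against 17, 30 and 21, with ratios of 1.65, 0.855 and 2.67. After SB it was called, and after Activin and DMSO it was not.

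No tested H3 or H4 gene was near input level. All 11 H3 genes and all 12 tested H4 genes were called in each treatment. The calls of Hist1h4n rest on 3, 1 and 0 input tags after Activin, DMSO and SB. Its highest pileup after Activin and DMSO lay 658 and 656 bp past its start, beyond its end, so these values say little of the gene itself. The H3 ratios ran from 4.46 to 18.0 after Activin, 4.18 to 10.9 after DMSO and 3.86 to 14.8 after SB, and the H4 ratios from 4.82 to 18.8 after Activin. The highest ratio after Activin was that of Hist1h4d (ENSMUSG00000061482, chr13:23673467-23673859, plus strand), with 236 ChIP and 11 input tags, 18.8 (10.3 to 38.3), which rests on few input tags. Among the 30 genes with at least 20 input tags after Activin, the highest were Hist1h1b, Hist1h1d, Hist2h3b (8.32), Hist1h2ai and Hist1h4i (8.18). Among the 44 such genes after DMSO they were Hist1h1a, Hist1h2bk (11.1), Hist1h1d, Hist1h2ae (10.9) and Hist1h3h (10.9), and among the 34 after SB Hist1h1a, Hist1h1c, Hist1h1b, Hist1h4i (10.0) and Hist1h3a (9.92). Some of these windows owe their peak to a neighbour. The highest Activin pileup lay 1268 bp past the start of Hist2h3b, in Hist2h2bb, and 1662 bp past that of Hist1h2ai, in Hist1h3h. After DMSO that of Hist1h2ae was at -671 bp, in Hist1h2bg. After SB that of Hist1h3a lay 1404 bp past its start, in Hist1h4a.

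Pooled over merged windows by type, ChIP over input after Activin was 6.83 (5.85 to 8.01) for H1, 4.30 (3.81 to 4.85) for H2A, 3.20 (2.93 to 3.50) for H2B, 7.26 (6.24 to 8.50) for H3 and 7.68 (6.69 to 8.84) for H4. After DMSO the same order of values was 8.55 (7.36 to 9.99), 5.38 (4.82 to 6.02), 3.82 (3.53 to 4.15), 6.68 (5.88 to 7.62) and 7.10 (6.30 to 8.02). After SB it was 9.06 (7.83 to 10.5), 5.66 (5.03 to 6.38), 4.11 (3.74 to 4.51), 7.68 (6.65 to 8.92) and 7.57 (6.65 to 8.65). H2B was thus lowest in all 3, and the intervals of H1, H3 and H4 overlapped. The H2B value includes the long window of Hist1h2be, and by the median over genes after Activin H2B (4.78) was above H2A (4.42). Since windows overlap, a tag can count for 2 types. With each tag given to the gene of the nearest start, the Activin values were 6.43, 3.15, 3.22, 6.29 and 5.47, so that H2A and H2B stayed below H1, H3 and H4.

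By cluster, Hist1 was at 4.99 (4.66 to 5.34), 5.49 (5.16 to 5.84) and 6.36 (5.94 to 6.81) after Activin, DMSO and SB. Hist2, which holds H2A, H2B, H3 and H4 genes and where all 9 genes were called in each treatment, was at 3.71 (3.21 to 4.31), 3.93 (3.44 to 4.51) and 4.16 (3.59 to 4.83). Hist3 was at 1.64 (1.26 to 2.15), 2.43 (1.88 to 3.16) and 2.72 (2.06 to 3.63). Hist4, a single H4 gene, held 250, 257 and 249 ChIP tags against 33, 35 and 40 input tags, and was at 6.65 (4.62 to 9.88), 7.24 (5.08 to 10.6) and 6.71 (4.79 to 9.62). Hist3 was below Hist1 and Hist4 in each treatment, with no overlap of the intervals. In Hist3, Hist3h2a was called in each treatment at 2.08, 2.61 and 2.97, and Hist3h2ba, with 48, 72 and 47 ChIP against 39, 33 and 23 input tags, was at 1.08 (0.694 to 1.69), 2.15 and 2.20 and was not called after Activin.

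Hist1 fell into blocks separated by more than 100 kb, of which the largest held 29 genes in 233365 bp (chr13:23622919-23856283). Its windows were at 4.60, 5.04 and 5.95 times input. The block of 18 genes at chr13:21807632-21929399 was at 6.39, 7.05 and 8.30, and that of 5 genes at chr13:22126982-22135545 at 7.36, 9.90 and 8.32. The sequence between the windows of the largest block was at 0.853 (0.759 to 0.958), 0.882 (0.784 to 0.991) and 0.907 (0.791 to 1.04), and that of the block of 18 genes at 0.897, 1.10 and 1.05. The signal of Hist1 was therefore on the genes and not spread over the cluster. In Hist2 the sequence between windows was above input, at 1.63 (1.39 to 1.92), 1.57 (1.34 to 1.84) and 1.76 (1.47 to 2.11).

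**Figure D2:**
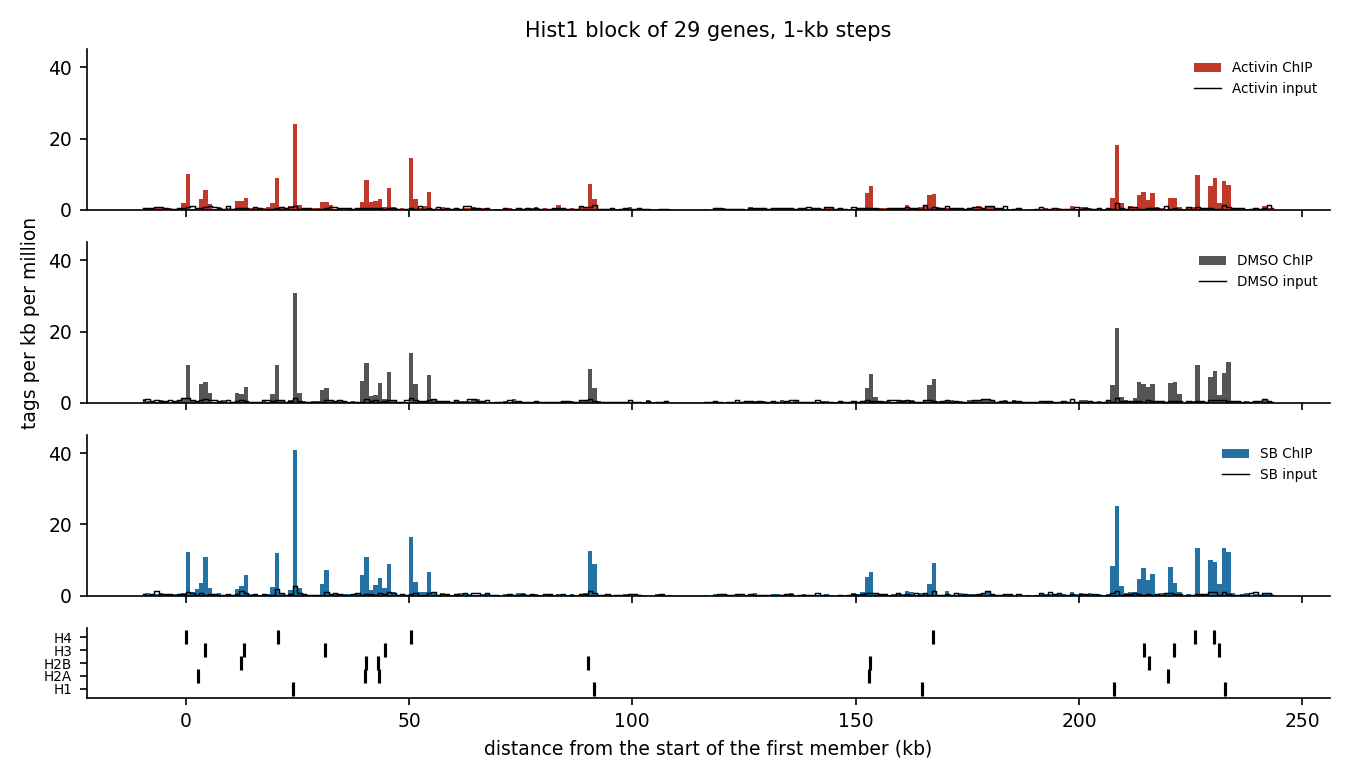
Tags per kb of sequence and 1000000 library tags (RPKM) in steps of 1 kb across the Hist1 block of 29 genes, with ChIP as filled bars and input as a black line in a panel per treatment, and the start of each gene by histone type in the lowest panel; the horizontal axis is the distance from the start of the first gene in kb. The tallest step, at 24 kb, holds Hist1h1d and reaches 24.0 (Activin), 30.8 (DMSO) and 40.9 (SB) against 1.04, 1.26 and 2.66 in input.

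Around the starts, most tags lay past the start. In steps of 100 bp and as a mean over the 67 genes, ChIP from 200 to 100 bp before the start was 1.18, 1.16 and 1.02 RPKM after Activin, DMSO and SB, which was 1.86, 1.23 and 1.13 times input. In the last 100 bp before the start it was 2.22, 2.25 and 2.39 RPKM, or 2.21 (1.69 to 2.91), 2.36 (1.81 to 3.10) and 2.47 (1.85 to 3.34) times input, so that ChIP was above input there too. From 200 to 300 bp past the start it was 7.26, 8.76 and 14.0, or 15.2, 14.1 and 16.7 times input. It was 8.37, 10.4 and 11.6 in the step from 400 bp, and 1.91, 1.95 and 1.90 in that from 1000 bp. Further than 300 bp before the start the mean rose again, where close neighbours lie. In the step from 700 to 600 bp before the start, the 26 genes with a divergent partner were at 6.46, 7.58 and 7.33, and the other 41 at 2.47, 2.99 and 2.70. At the 6 H1 genes no such rise was seen, since their ChIP level from 1000 to 200 bp before the start was at most 1.37 RPKM. At H1 genes the level from 200 bp past the start was 17.4, 19.9 and 42.2, and at H4 genes it was 19.8, 24.2 and 33.2. The levels past the start are lower limits, since copies of the coding sequence leave few places for a tag. In the step from 200 bp a mean of 23.6% of 35-base stretches occurred once in the genome, 59.3% at H1, 21.9% at H2A, 24.1% at H2B, 9.27% at H3 and 20.9% at H4 genes. Levels of different types are therefore not comparable in this step, while ChIP and input of a gene share the same places.

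**Figure D3:**
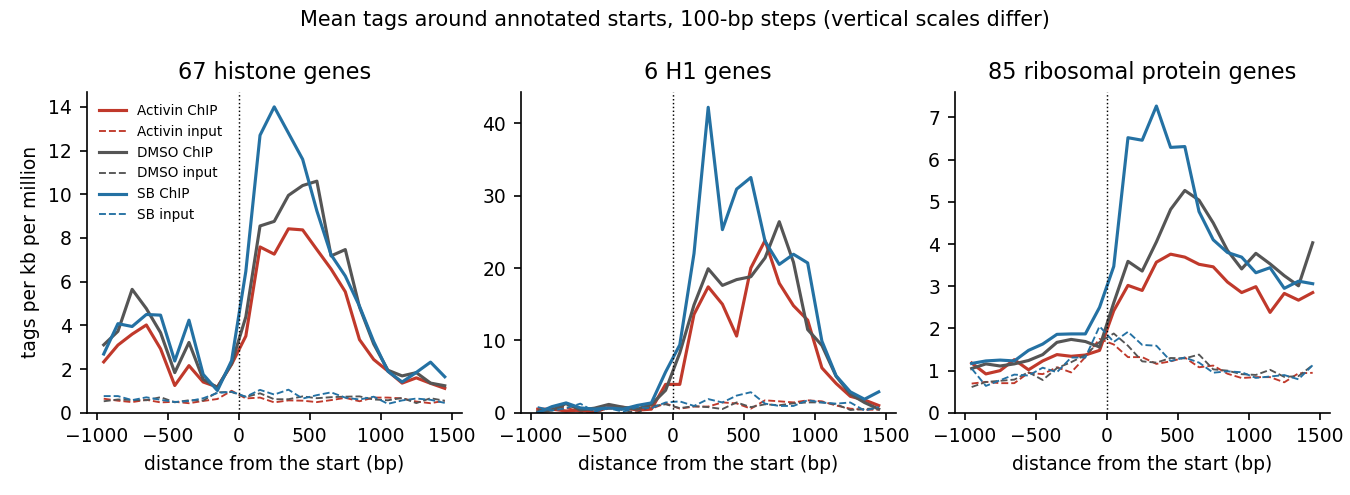
Mean tags per kb and 1000000 library tags (RPKM) against the distance from the annotated start in bp, in steps of 100 bp, for the 67 histone genes, their 6 H1 genes and 85 ribosomal protein genes, with ChIP as solid and input as dashed lines coloured by treatment; the vertical scales differ. At the histone genes ChIP is at 2.21 to 2.47 times input in the last 100 bp before the start and rises past it, to 14.0 (SB), 8.76 (DMSO) and 7.26 (Activin) RPKM from 200 bp past the start.

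The highest pileup of tags extended to 200 bp lay a median of 399, 366 and 261 bp past the start after Activin, DMSO and SB. At Hist4h4 it was 138, 141 and 150 fragments, 191, 197 and 192 bp past the start, and these were the highest of all 67 genes. At Hist1h1d it was 115, 135 and 121 fragments, 638, 740 and 287 bp past the start. After SB the pileup thus lay closer to the start at this gene than after the other treatments, whereas at Hist4h4 it stayed within 6 bp.

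Listed positions covered most of the genes. A position of the Activin list lay in the window of 59 of 67 genes, of the DMSO list in 58 and of the SB list in 50, where 12.7%, 16.4% and 13.2% of all protein-coding genes had one. In all 3 lists were 48 genes, in 2 lists 11, in 1 list Hist1h2ap, and in none the 7 genes that were called in no treatment. The median tag number of the positions in these windows was 69.0, 54.0 and 84.0, against 25.0, 17.0 and 28.0 over the whole lists of 5094, 7423 and 4759 positions. The highest was 276 at Hist1h1b after Activin and 315 and 327 at Hist1h1d after DMSO and SB. The listed positions of the treatments are not the same point of a peak. Activin positions lay a median of 0 bp from the highest pileup of the gene, and DMSO and SB positions 231 and 614 bp further along the chromosome. For example, Hist4h4 was listed at 136752734, 136753078 and 136753331, although its pileup stayed within 6 bp. The 9 genes in both other lists but not in that of SB, 7 of them H2A genes, are affected by this shift, and its part in their absence was not tested.

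Of the 58 Activin positions in the windows, 24 lay in the coding sequence of a histone gene, 21 in an annotated histone gene outside its coding sequence, 13 elsewhere in the windows and 0 in the 250 bases before a start. By type, 5 of 6 H1, 17 of 19 H2A, 14 of 18 H2B, 11 of 11 H3 and 12 of 13 H4 genes had an Activin position in their window.

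The second comparison asked whether the level changed with signalling. It compares the ChIP libraries with each other, and each library enters 2 of the 3 comparisons. Per kb and 1000000 library tags (RPKM), the merged windows held 2.62 ChIP tags after Activin, 3.14 after DMSO and 3.57 after SB, and 0.570, 0.617 and 0.617 input tags. Activin ChIP was 0.833 (0.806 to 0.860) times DMSO ChIP, SB ChIP was 1.14 (1.10 to 1.17) times DMSO ChIP, and Activin ChIP was 0.733 (0.709 to 0.758) times SB ChIP. The input libraries differed in the same windows by 0.924 (0.859 to 0.995), 1.00 (0.929 to 1.08) and 0.924 (0.856 to 0.998). The level of SB against DMSO was not stable to scaling. When libraries were scaled within windows of like GC content, SB ChIP was 1.02 (0.985 to 1.05) times DMSO ChIP. In the pooled windows, the direction of Activin ChIP below both other ChIP libraries held under every setting tried. These settings did not set each ChIP library against its own input. Over input, the pooled H3 and H4 ratios given above were not lowest after Activin, with intervals that overlapped between treatments.

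Single genes were called between treatments where the two-sided exact binomial test passed with at least a 1.5-fold difference. Activin was below DMSO at 5 of 63 tested genes and above it at 0, where 0.761% and 0.467% of all tested genes were called in these directions. SB was above DMSO at 2 and below it at 0, where 1.78% and 0.684% of all were, but with scaling by GC content SB was above at 0 and below at 4, and with 1 tag per position and strand it was above at 0. Activin was below SB at 21 and above it at 0, where 2.91% and 0.738% of all were. The median ratio of the histone genes was 0.812 for Activin over DMSO, 1.12 for SB over DMSO and 0.747 for Activin over SB, whereas over all genes it was 0.981, 1.02 and 0.968.

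Hist1h2bm, an H2B gene, held 42 ChIP tags after Activin, 94 after DMSO and 68 after SB. Activin was at 0.438 (0.297 to 0.636, exact binomial adjusted p = 0.000911) of DMSO and 0.458 (0.304 to 0.683) of SB. Hist1h3b held 90, 174 and 108 tags, with Activin at 0.507 (0.388 to 0.657, exact binomial adjusted p = 3.83e-05) of DMSO. Hist1h2ab, beside it, held 57, 94 and 92 tags, with Activin at 0.594 (0.420 to 0.834, exact binomial adjusted p = 0.0469) of DMSO. Hist1h2bn and Hist1h2ae were the other 2 genes called below DMSO. At each of these 5 genes the Activin library held the fewest tags after scaling. Among genes with at least 20 tags in the 2 ChIP libraries, the highest for Activin over DMSO was Hist1h1t at 1.44 (0.883 to 2.37). Hist1h2al at 1.21 and Hist2h2be at 1.17 followed, and none of them was called.

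Hist1h1e held 138, 184 and 219 ChIP tags after Activin, DMSO and SB, and SB was at 1.57 (1.29 to 1.92, exact binomial adjusted p = 0.000562) of DMSO. Hist1h2al, with 32, 26 and 52 tags, was at 2.64 (1.62 to 4.40, exact binomial adjusted p = 0.00227), and it stands alone on the chromosome. Hist1h1b was at 1.48 (1.28 to 1.71, exact binomial adjusted p = 2.17e-05), just under the fold asked for. The lowest for SB over DMSO were Hist1h2bh at 0.782 (0.528 to 1.14), Hist1h2bk at 0.815 and Hist1h3h at 0.819, and none was called. Neither call of SB above DMSO was kept with scaling by GC content or with 1 tag per position and strand. The H1 genes pooled were at 1.36 (1.27 to 1.46), while their input was at 1.28 (1.05 to 1.57) in the same libraries. The higher SB level at H1 genes thus went with a higher SB input.

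Activin was below SB at 4 of 6 H1, 10 of 18 tested H2A, 3 of 16 tested H2B, 4 of 11 H3 and 0 of 12 tested H4 genes. The medians by type were 0.629, 0.647, 0.786, 0.742 and 0.798. The lowest values were those of Hist1h2al at 0.457, Hist2h2aa2 at 0.458 (37 against 60 tags) and Hist1h2bm. The highest were those of Hist1h1t at 1.17 (0.710 to 1.95), Hist1h2ba at 1.13 and Hist1h2bh at 1.06. With scaling by GC content 7 genes were below and 1 above. Whether types differ from each other was not tested.

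**Figure D4:**
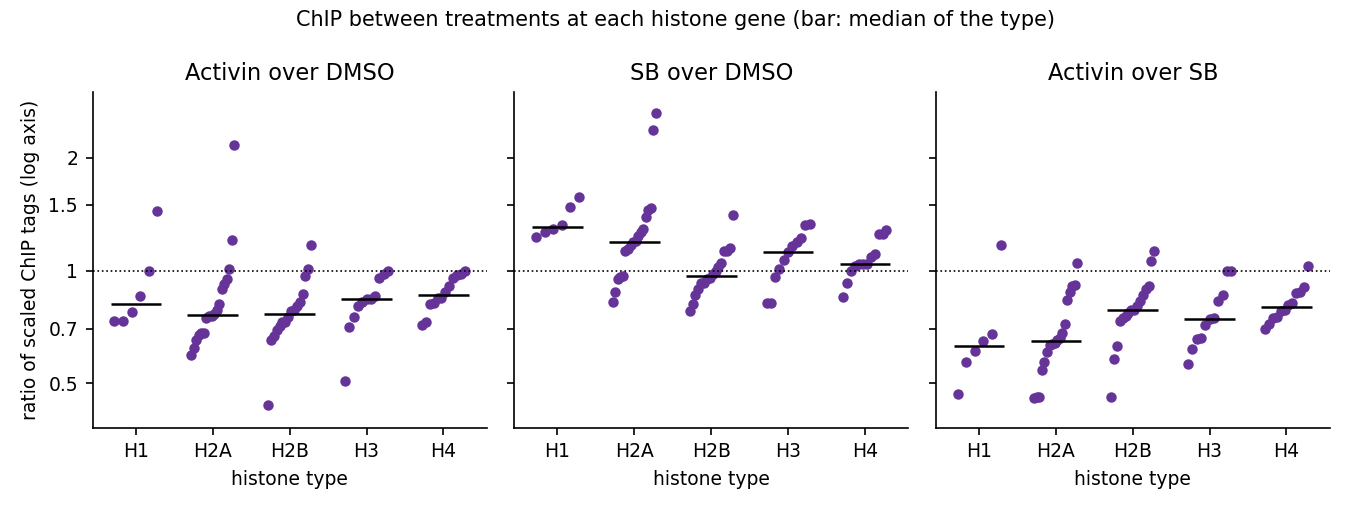
Ratio of scaled ChIP tags between 2 treatments on a log axis for each histone gene with enough tags, by histone type, in a panel per pair of treatments; each point is 1 gene, bars are medians of the type and the dotted line marks 1. In the panel of Activin over SB most points lie below the line, with medians from 0.629 (H1) to 0.798 (H4).

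By library totals, the SB library stood above the others just past the start. From 200 to 300 bp past it, SB was at 14.0 RPKM against 8.76 and 7.26 after DMSO and Activin, and from 1000 bp the 3 were at 1.90, 1.95 and 1.91. Input from 200 bp was also highest in SB, at 0.837 against 0.622 and 0.478. Over input the 3 were there at 16.7 (12.8 to 22.1), 14.1 (10.6 to 19.0) and 15.2 (10.9 to 21.8). SB was highest over input in some steps, as at 0 to 100 bp (8.77, 6.03 and 5.32). In others it was lowest, as at 500 to 600 bp (11.4, 15.8 and 15.2). In the step from 200 bp, the mean over all protein-coding genes was 2.42, 1.63 and 1.55, although ChIP over input was 0.984, 0.853 and 0.884 there. The SB library, input included, thus held more tags past the starts of genes in general, and its part in the difference at histone genes was not tested.

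To set the level in context, the histone genes were compared with other genes of the pathway and with ribosomal protein genes, another family that is strongly transcribed in dividing cells. Since these genes differ in length, windows of 1 kb to both sides of the start were used. In these windows 56, 58 and 59 of 62 tested histone genes were called after Activin, DMSO and SB, with medians of 7.15, 8.28 and 7.81, where 2.99%, 4.14% and 6.81% of all genes were called. Of 85 ribosomal protein genes, 41, 58 and 70 were called, with medians of 2.04, 2.39 and 2.75. In whole gene windows 77, 81 and 80 of them were called, with medians of 2.84, 3.21 and 3.35. They too held their tags past the start, at 3.57, 4.05 and 7.27 RPKM from 300 bp, and their ChIP was 0.802 (Activin over DMSO), 1.04 (SB over DMSO) and 0.769 (Activin over SB) in the median. The ribosomal protein genes thus shared with the histone genes the place of the tags, their presence in all 3 treatments and the lower Activin level, at a lower ratio to input.

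A mixed list of 13 other histone genes was taken, many of which are expressed outside S phase as well and mostly from polyadenylated messages. Of these, 2, 2 and 3 were called after Activin, DMSO and SB, where 2.99%, 4.14% and 6.81% of all genes were called. Their medians were 1.13, 1.03 and 1.19. H1foo, H1fnt and H2afb1, at 0.987, 0.658 and 0.493 after DMSO and not called in any treatment, enter these medians. H2afx, which encodes the variant H2A.X, was called in all treatments, with 93, 142 and 260 ChIP tags against 22, 25 and 26 input tags and ratios of 3.71, 5.60 and 10.8. It was also the only one of the 13 with a stem-loop match in the gene, and it is known to yield both kinds of message. The other calls were H2afj after Activin (2.63), H3f3a, which encodes H3.3, after DMSO (2.43) and SB (3.47), and H2afz, which encodes H2A.Z, after SB (3.13).

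A list of 19 genes was drawn up as factors that act on histone gene expression. It included Ern1, which is not known as such a factor, was not called in any treatment and is counted in the shares below. Of these 19 genes, 0 were called after Activin and DMSO and 3 after SB, namely Ccne2 at 3.41, E2f4 at 1.95 and Yy1 at 2.66. Npat, the coactivator of histone genes, and Slbp, the protein that binds the stem-loop, were not called in any treatment. Of 14 histone chaperone genes 1, 1 and 5 were called. Npm1 was called in all treatments at 2.51, 2.49 and 2.67, and Daxx, Hira, Rbbp4 and Rbbp7 after SB at 1.82 to 3.54. After SB the called shares were 15.8% and 35.7% of the 2 lists, above the 6.81% of all genes. After Activin and DMSO the share was 0 of the first list and 7.14% of the second, which was Npm1 alone. Of all genes 2.99% were called after Activin and 4.14% after DMSO.

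**Figure D5:**
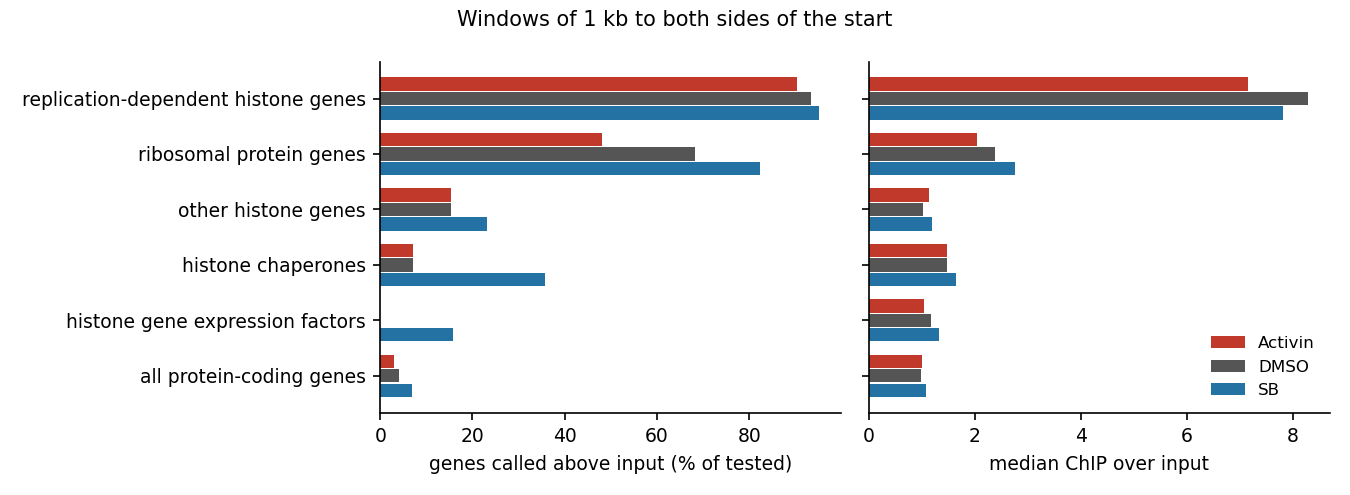
Share of tested genes called above input (left, in percent) and median ChIP over input (right) in windows of 1 kb to both sides of the start, for the histone genes, 4 other gene lists and all protein-coding genes, with a bar per treatment. The histone genes reach medians of 7.15 to 8.28 and the ribosomal protein genes 2.04 to 2.75, while the medians of the other lists lie between 1.03 and 1.65.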

How the data were processed

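The files hold 6 libraries of aligned tags of 35 bp and 3 peak lists, in which each peak has its position and number of tags. The counts are those of tags as deposited by the authors. The aligner is not given in the sources used here. Since mm9 is named in the submitters' processing notes, genes, coordinates and sequences are from the annotation and genome of that build. The member genes, the other gene lists and the motifs were chosen with earlier results of these data known.

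The 5' end of a tag was moved by 100 bp to the middle of its fragment, and tags were counted from 1 kb before the start to 1 kb past the end of all 22350 protein-coding genes, and 1 kb to both sides of the start. Libraries were scaled by total tags. Genes with at least 10 tags in both libraries together were compared by exact binomial tests, one-sided for ChIP over input and two-sided between treatments, with Benjamini-Hochberg adjustment over all genes tested. A gene was called at an adjusted p under 0.05 and a fold of at least 1.5. Intervals are 95% Clopper-Pearson intervals. In tests and calls an input of 0 was left at 0, so that the fold was passed. It was set to a limit of 3 tags only for the median of histone genes given with that limit. Tests cover counting error within libraries and not the spread between cultures. Pileup used tags extended to 200 bp. No reads were dropped, and the peak lists were taken whole.

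The genes named are, per treatment, the 5 of highest and the 5 of lowest ChIP over input among those with at least 20 input tags, per pair of treatments the 3 of largest ratio in each direction, the Hist3 and Hist4 genes, those with listed positions, given as counts, and the testis-type genes. Hist1h4d, Hist1h1e, Hist1h1c and the comparison genes named were added after their values were seen. Hist1h1c also met the rule for SB over input, and Hist1h1e that for SB over DMSO.

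On simulated counts, SB ChIP against input recovered 78.0% of 2-fold and 96.0% of 3-fold changes among 21029 genes, and Activin against SB ChIP 80.0% and 98.0% among 20966. Of the unchanged genes 0.0240% and 0.0193% were called. The simulated counts held counting error only, which is what the test assumes. These shares therefore do not carry over to repeated tags, GC content or the spread between cultures. Alternatives covered repeated tags, scaling, windows, tag placement, thresholds and stretches found once in the genome. Python 3.11.15 was used with numpy 2.4.6, scipy 1.17.1, pandas 2.3.3, numba 0.67.0 and matplotlib 3.10.9.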

Additional observations from a re-analysis of the deposited data

How the results depend on the processing

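Of 357 alternative values of 45 results, 342 kept their direction, their side of the threshold and, for counts, lay within 1.5 times the reported count, and no pooled ratio turned in direction. Pooled ChIP over input ranged from 4.15 to 7.0 after Activin, 4.53 to 7.64 after DMSO and 5.40 to 8.12 after SB, and genes called above input ranged from 52 to 61, 54 to 58 and 55 to 60. Pooled Activin over DMSO ranged from 0.802 to 0.878 and Activin over SB from 0.674 to 0.824. SB over DMSO was 1.02 with scaling by GC content, with an interval that included 1, and up to 1.25 otherwise. The counts between treatments moved most. With GC scaling, Activin was below SB at 7 genes and above it at 1, SB was above DMSO at 0 and below it at 4, so that the balance of these calls turned. With no flanks Activin was below DMSO at 3 and SB above DMSO at 10. At 2-fold the counts were 1 (Activin below DMSO), 1 (SB above DMSO) and 5 (Activin below SB), and at an adjusted p under 0.001 they were 3, 1 and 7. With 1 tag per position and strand SB was above DMSO at 0, and with no test Activin was above DMSO at 1. Fewer genes pass a stricter threshold by its construction, and the cause of the other changes was not tested. The alternatives with other choices of genes (without Hist1h2be, genes up to 1 kb, and windows with at least 90% of stretches found once) were added after seeing the data. No paired analysis was possible because each group holds 1 library. With 1 library per treatment the spread between cultures is unknown, and windows of near-identical copies hold few or no tags.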
